A study of Mus musculus with 18 samples.

Results

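Fibroblast growth factor (FGF) signalling was examined in C2C12 mouse myoblasts through 40 genes, taken from the 35275 genes of the expression table by their symbols. They comprise 22 FGF genes, 5 receptor genes (Fgfr1 to Fgfr4 and Fgfrl1), the docking adaptors Frs2 and Frs3, 8 feedback inhibitors (Spry1, Spry2, Spry4, Spred1, Spred2, Spred3, Dusp4 and Dusp6) and 3 transcription factors of the ETS family (Etv1, Etv4 and Etv5). The rule reads gene symbols and no measured value. C2C12 is an established line of mouse myoblasts, which form multinucleated myotubes in low serum, and the stock is labelled PAX7 negative. Control C2C12 cells, labelled wild-type, were compared with C2C12 cells overexpressing the spliced form of the long noncoding RNA MUNC (MUNC spliced) and with cells overexpressing its genomic form (MUNC genomic). MUNC is transcribed upstream of Myod1, the gene of a master regulator of muscle differentiation. Each of these cell populations was harvested in growth medium (GM) with 20% fetal bovine serum at about 80% confluency, and after 3 days in differentiation medium with 2% horse serum (DM3). The 6 groups held 3 biological replicates each, which gave 18 libraries of polyadenylated RNA. How the overexpressing cells were made, and whether each came from 1 clone, is not given in the sources used here, and the level of MUNC itself was not analysed here.

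FGF ligands bind receptor tyrosine kinases together with heparan sulphate on the cell surface. The active receptor phosphorylates FRS adaptors and turns on the RAS and ERK kinase cascade, which raises transcription of ETS factors and of inhibitors that act back on the cascade. Sprouty and SPRED proteins act at the level of RAS and RAF, whereas the phosphatases DUSP4 and DUSP6 remove the activating phosphates from ERK. In muscle, FGF signalling is known for keeping myoblasts dividing and for holding back their differentiation, and SPRY1 is known from the return of muscle stem cells to quiescence.

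The libraries held 38416702 to 68788327 recovered reads each, and a gene with no read allows at most 0.0757 FPM (fragments scaled by library size) in any library, a limit that covers counting error only. Across genes, libraries of the same group had pairwise r from 0.980 to 0.996. The muscle label rested on few genes in control cells: Myf5 averaged 71.8 FPM in GM and 103 FPM in DM3 and Cdh15 46.3 and 76.4 FPM, but Myod1 averaged 0.0284 and 0.0993 FPM and Myog 0.0287 and 0.344 FPM. Myotube genes differed from one another there. Means in GM and DM3 were 0.309 and 0.444 FPM for Myh3, 0.027 and 0.044 FPM for Ckm and 20.65 and 4.35 FPM for Acta1. Tnnt3 (0.370 and 6.14 FPM) and Des (24.2 and 77.5 FPM) had higher means in DM3. Of the 9 tested myoblast and myotube markers, 4 were called higher and 1 lower in control DM3 than in control GM. Among all tested genes 29.6% were called higher and 28.6% lower there. Differentiation of control cells therefore names the 3 days in differentiation medium, and whether myotubes formed was not tested. Pax7 had at most 8 reads in any library. Over 10 myoblast and myotube markers, the summed level was 157 to 175 FPM in control GM, 219 to 301 FPM in control DM3, 248 to 347 FPM in MUNC spliced GM, 399 to 693 FPM in MUNC genomic GM and 1034 to 1210 FPM in MUNC genomic DM3. Des, the gene of the muscle intermediate filament desmin, carried the MUNC genomic sums, with means of 476 FPM in GM and 898 FPM in DM3 against 24.2 and 77.5 FPM in control cells, whereas Myf5 (26.7 FPM) and Cdh15 (22.9 FPM) had lower means in MUNC genomic than in control GM. Of the 9 markers tested, 2 were called higher and 2 lower in that comparison, against 12.2% and 14.5% of all tested genes. MUNC spliced DM3 replicate 1 stood apart from its 2 replicates, with 1306 FPM against 483 and 509 FPM over these markers and 1121 FPM against 285 and 312 FPM over 8 proliferation genes. Results on MUNC spliced DM3 are therefore also given without it where that ended a call. Sums over other lists moved with the groups too. Over 5 fibroblast genes they were 3982 to 6772 FPM in control GM and 7977 to 14790 FPM in MUNC spliced GM. Col1a1 and Col3a1 carried these sums, while Dpt averaged 0.866 and 0.608 FPM. Over 4 neural genes the sums were 331 to 635 FPM and 30.6 to 92.8 FPM in the same groups. Nefl (265 and 2.45 FPM) and Nefm (161 and 0.112 FPM) had lower means in MUNC spliced GM. Tubb3 (37.4 and 58.3 FPM) and Elavl3 (0.0059 and 0.0447 FPM) had higher ones. Over 6 interferon response genes the sums were 2533 to 4695 FPM in control DM3 and 14 to 19.1 FPM in MUNC genomic DM3. In GM the mean of Krt14, a keratin gene of epithelia, was 47.4 FPM for control and 109 FPM for MUNC spliced cells, and endothelial, blood and adipocyte lists stayed at or below 14.4 FPM in every library. Within these lists the endothelial gene Cdh5 averaged 7.14 FPM in MUNC genomic and 0.199 FPM in control GM. The adipocyte gene Cebpa averaged 11.2 FPM in MUNC spliced, 3.09 FPM in MUNC genomic and 0.45 FPM in control GM. Pecam1, Kdr, Adipoq and Plin1 stayed at or below 0.221 FPM in every library. The part of these lists in the results was not tested. All libraries are bulk RNA, so fewer cells of a type and less RNA per cell cannot be told apart.

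Of the 40 genes, 24 reached 0.5 FPM in at least 3 libraries and were tested, among 13869 genes in all. They were 7 of the 22 FGF genes, 4 of the 5 receptors, and all adaptors, feedback inhibitors and ETS factors. A gene that reached this level in some groups only had to differ between groups. Fgf5 did so through the MUNC spliced libraries, and Spry1 and Fgf14 through libraries of the overexpressing populations. Fgfr4 did so mostly through DM3 libraries, since its highest GM value was 0.513 FPM, in MUNC spliced cells. Counts over the 24 genes are therefore given as descriptions. Fgf3, Fgf4 and Fgf12 had no read in any library. The other 13 genes below the limit were Fgf1, Fgf6, Fgf8, Fgf9, Fgf13, Fgf15, Fgf16, Fgf17, Fgf18, Fgf20, Fgf22, Fgf23 and Fgfr2, the receptor gene whose protein binds FGF7 and FGF10. The highest value among them was 0.785 FPM (46 reads), for Fgfr2. Per kb of exon, the level of Dusp4 was the highest of the 40 in control GM (62.2 ± 18.7 FPM per kb, SD, n = 3), ahead of Fgf7 (29.6 ± 10.7), Etv4 (29.1 ± 4.43) and Dusp6 (25.5 ± 7.57), whose ranges overlapped one another. In control DM3 the order was Dusp4 (52.8 ± 8.62 FPM per kb), Fgfr1 (27.5 ± 4.72) and Spred1 (19.3 ± 1.53).

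On differentiation of control cells, Fgf10, Fgf11, Spred3, Etv1, Fgfr1, Fgfr4, Frs2 and Frs3 rose, and Etv4, Fgf7, Etv5, Spry4, Fgfr3 and Dusp6 fell. These 14 called genes, 8 higher and 6 lower, are 58.3% of the 24 tested, where 58.2% of all tested genes were called by limma at a Benjamini-Hochberg adjusted p under 0.05, so the share did not stand apart from the background (29.6% higher and 28.6% lower). Without control DM3 replicate 3 the count was 9. In MUNC spliced cells 8 of the 24 were called on differentiation, against a background of 35.6% (17.2% higher, 18.4% lower): Fgf21, Spry1, Spry2, Fgf2 and Fgf14 rose and Etv4, Dusp4 and Fgfr3 fell. In MUNC genomic cells 13 were called, against a background of 51.4% (26.3% higher, 25.1% lower): Spry1, Spred3, Fgf21, Fgf11, Fgf14, Frs3, Fgfr4 and Fgfrl1 rose and Fgf7, Etv4, Dusp4, Spry4 and Fgfr3 fell. Etv4 and Fgfr3 were thus called lower, and none of the 24 called higher, in all 3 cell populations.

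Against control in the same medium, more of the called genes were lower than higher in MUNC spliced cells. In GM 12 of the 24 genes were called, 4 higher (Spry1, Fgf5, Fgfrl1 and Frs2) and 8 lower (Etv4, Dusp4, Spry4, Fgf10, Etv1, Fgf7, Etv5 and Dusp6), where 35.5% of all tested genes were called, 18.2% higher and 17.3% lower. The median log2 change of the 24 genes was -0.28, beside -0.02 over all tested genes. In DM3 13 were called, 4 higher (Spry1, Fgf21, Fgf5 and Fgf14) and 9 lower (Fgf10, Etv4, Etv1, Dusp4, Spred3, Spry4, Fgfr1, Fgf11 and Spred2), with a background of 43.3%, 22.3% higher and 21% lower. The median of the 24 was -0.15, beside 0.01 over all tested genes. Without MUNC spliced DM3 replicate 1 the split was 5 higher and 8 lower.

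MUNC genomic cells differed from control in 8 of the 24 genes in GM, against a background of 26.8% (12.2% higher, 14.5% lower). Spry1 and Frs2 were higher, and Fgf10, Spry4, Fgf2, Etv4, Fgf11 and Spry2 lower. This count fell to 4 without control GM replicate 3 and to 5 without MUNC genomic GM replicate 2. The split of 2 higher and 6 lower became 3 and 4 with equal library sums and 3 and 5 with quantile normalization. In DM3 9 were called, against 40.3% in the background (19.3% higher, 20.9% lower): Spry1, Fgf14, Etv5, Fgfrl1 and Frs2 were higher and Fgf10, Spry4, Dusp4 and Fgf2 lower. Both comparisons in a medium share the control libraries, so calls common to the 2 overexpressing populations are not independent of each other.

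The direct comparison of the 2 overexpressing populations does not use the control libraries. In GM 12 genes were called, 4 higher (Fgf10, Fgf5, Spry1 and Fgf2) and 8 lower (Etv4, Dusp4, Etv1, Etv5, Fgf7, Dusp6, Fgfr1 and Spred2) in MUNC spliced cells, against a background of 35.8%, 19.9% higher and 16% lower. Without MUNC spliced GM replicate 2 the count was 7, and quantile normalization gave 2 higher and 9 lower. In DM3 15 of the 24 were called, 6 higher (Fgf10, Fgf21, Fgf2, Spry2, Fgf7 and Fgf5) and 9 lower (Etv4, Etv1, Spred3, Etv5, Dusp4, Fgfr1, Fgf14, Spred2 and Frs3), against a background of 44.2% (23.4% higher, 20.8% lower). The median absolute log2 change of the 24 genes was 0.79 in this comparison, beside 0.34 over all tested genes.

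**Figure D1:**
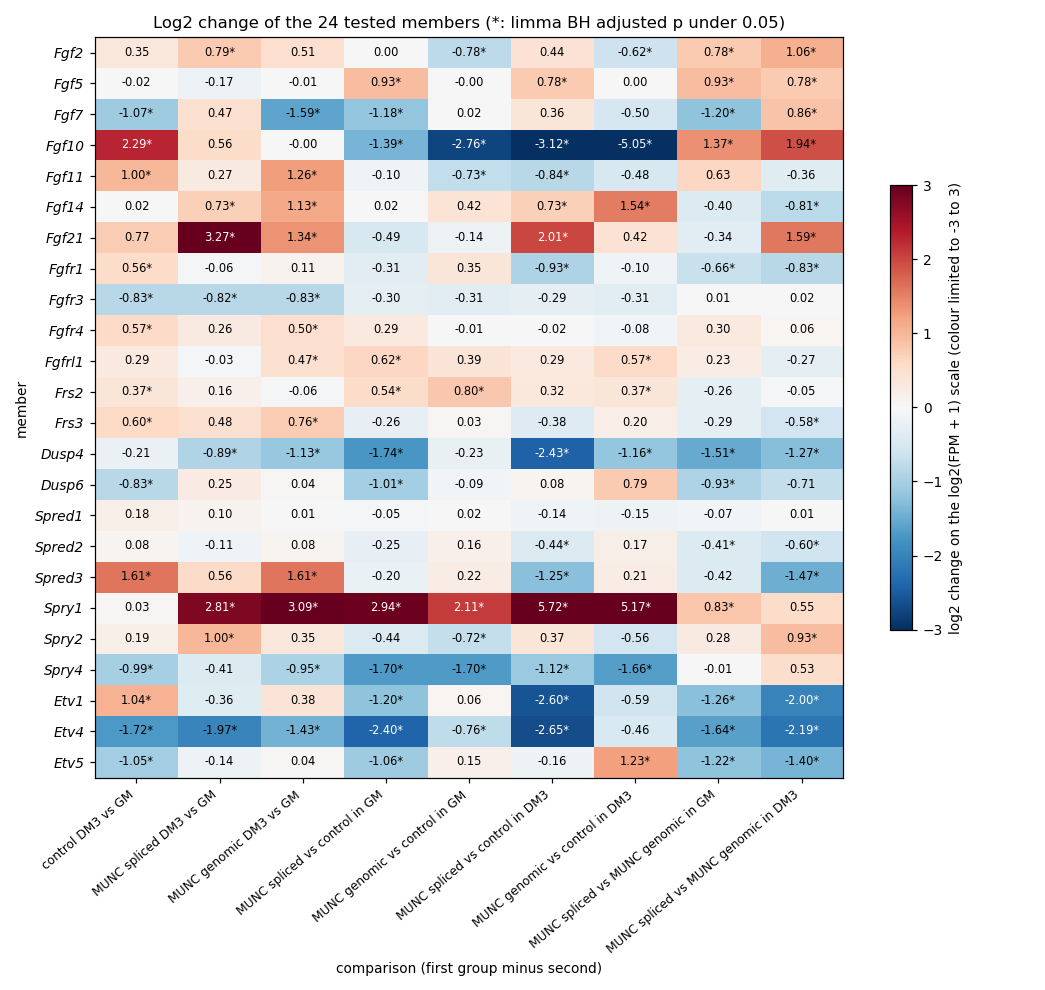
Log2 change, on the log2(FPM + 1) scale, of each of the 24 tested genes (vertical axis, by role) in the 9 comparisons between groups (horizontal axis, first group minus second). Red is higher and blue lower in the first group, the colour is limited to -3 and 3, and a star marks a gene called by limma at an adjusted p under 0.05. The Spry1 line turns deep red in every comparison of an overexpressing population with control, from 2.11 to 5.72, the Fgf10 line blue, from -5.05 to -1.39, and the Spred1 line holds no star.

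Fgf10, Fgf5 and Spry1 were each at or near 0 in at least 1 cell population and present in another. The 250 bases before their RefSeq starts (GRCm38.p6, plus strand, 5′ to 3′) are shown here as the genomic context of these contrasts. Capitals mark matches to the E-box CANNTG, the site of MYOD-type factors, and to the core CCGGAA of ETS factor sites, read on both strands (TTCCGG is its reverse complement); no matches overlapped. The Fgf10 stretch is chr13:118714449-118714698, that of Fgf5 is chr5:98253934-98254183, and that of Spry1 is chr3:37639697-37639946, where it overlaps 1 exon of the opposite-strand gene Gm42922 in GENCODE M21.
Fgf10: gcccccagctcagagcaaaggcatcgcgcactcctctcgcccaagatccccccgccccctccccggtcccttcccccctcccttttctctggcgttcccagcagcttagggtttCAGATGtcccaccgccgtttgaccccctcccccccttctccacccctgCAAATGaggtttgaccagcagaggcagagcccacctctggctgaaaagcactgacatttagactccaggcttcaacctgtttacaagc
Fgf5: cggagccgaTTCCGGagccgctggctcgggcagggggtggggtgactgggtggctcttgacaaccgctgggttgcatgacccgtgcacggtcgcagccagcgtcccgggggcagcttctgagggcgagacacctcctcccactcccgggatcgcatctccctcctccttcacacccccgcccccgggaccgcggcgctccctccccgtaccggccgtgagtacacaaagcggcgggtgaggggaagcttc
Spry1: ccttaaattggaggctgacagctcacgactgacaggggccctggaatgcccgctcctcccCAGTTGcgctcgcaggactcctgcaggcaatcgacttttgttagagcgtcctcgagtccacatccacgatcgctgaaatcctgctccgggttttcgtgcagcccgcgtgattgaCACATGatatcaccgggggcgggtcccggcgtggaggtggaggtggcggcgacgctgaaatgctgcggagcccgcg
Fgf10 and Spry1 each held 2 E-boxes and no ETS core, and Fgf5 held 1 ETS core and no E-box. Among 32851 promoters of the table, 66.2% held an E-box and 12% the ETS core in the same stretch. GC content was 61.2% for Fgf10, 70.8% for Fgf5 and 62.4% for Spry1, beside a median of 52.4%, and the number of CpG dinucleotides was 8, 24 and 23, beside a median of 6. A match is a description of these letters only.

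Among the ligands, Fgf10 was high in control, low in MUNC spliced and close to 0 in MUNC genomic cells. It encodes a secreted ligand of mesenchymal cells that acts on the epithelial form of FGFR2. Its levels were 8.18, 7.65 and 3.13 FPM in control GM and 36.4, 30 and 32 FPM in control DM3, with replicates in order throughout. In MUNC spliced cells they were 3.46, 0.715 and 1.39 FPM in GM and 3.63, 2.07 and 3.13 FPM in DM3. In MUNC genomic cells the 6 libraries held 0 to 2 reads each, 2, 0 and 1 in GM and 1, 0 and 1 in DM3. The control libraries thus lay above every MUNC genomic library in both media, and above every MUNC spliced library in DM3, whereas the lowest control GM library (3.13 FPM) lay below the highest MUNC spliced GM library (3.46 FPM). From reads pooled over replicates, Fgf10 was 365-fold higher in control than in MUNC genomic cells in GM (95% counting interval 124 to 1770) and 2757-fold higher in DM3 (763 to 22770). By limma, the log2 change on differentiation of control cells was 2.29 (SE 0.30, adjusted p = 1.01e-05). Against control, MUNC spliced cells had log2 changes of -1.39 (adjusted p = 0.00204) in GM and -3.12 (adjusted p = 5.76e-07) in DM3. The antisense gene Gm16263, which overlaps Fgf10, had at most 0.0341 FPM in any library.

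Fgf7, which encodes keratinocyte growth factor and acts on the same receptor form, had the highest mean level per kb of exon of the 22 FGF genes in each of the 6 groups. Its levels were 136, 80.3 and 71.9 FPM in control GM and fell to 52.3, 31.8 and 49.7 FPM in control DM3, a log2 change of -1.07 (SE 0.27, adjusted p = 0.00278). MUNC genomic cells went from 111, 84.2 and 87.9 FPM in GM to 32.7, 31.3 and 27.6 FPM in DM3, a log2 change of -1.59 (SE 0.27, adjusted p = 0.000135). In both populations all GM libraries lay above all DM3 libraries. MUNC spliced cells had 62.9, 28.8 and 35.7 FPM in GM and 47.7, 58.1 and 63.6 FPM in DM3, and their groups overlapped (log2 change 0.47 (adjusted p = 0.182)). The direct tests of these differences in response gave 1.53 (adjusted p = 0.0149) for MUNC spliced against control and 2.06 (adjusted p = 0.00234) for MUNC spliced against MUNC genomic cells. In GM, Fgf7 was lower in MUNC spliced than in control cells (-1.18 (adjusted p = 0.00283)), and in DM3 it was higher in MUNC spliced than in MUNC genomic cells (0.86 (adjusted p = 0.0156)). The last call was lost without MUNC spliced DM3 replicate 3 or MUNC genomic DM3 replicate 3 (log2 changes from 0.77 to 0.79, adjusted p = 0.055 to 0.0553). Fam227b, which overlaps Fgf7 on the opposite strand, had at most 0.181 FPM.

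Fgf5, which encodes a secreted ligand known for ending the growth phase of hair, was detected almost only in MUNC spliced libraries. They held 0.858, 0.733 and 1.21 FPM in GM and 1.29, 0.924 and 0.145 FPM in DM3, the last of them from 8 reads. The 12 other libraries held 0 or 1 read each. Pooled reads put MUNC spliced GM 84.9-fold above control GM (95% counting interval 23.1 to 708). In DM3 both control and MUNC genomic cells had no read, and MUNC spliced was at least 40.8-fold higher than control and at least 43.7-fold higher than MUNC genomic cells, with 3 reads over the group as the floor. Because Fgf5 passed the limit through these libraries alone, its calls are a description of the levels and no test is given.

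Fgf2 encodes basic FGF, the ligand best known for keeping cultured myoblasts dividing. It was at most 4.39 FPM in any library. MUNC genomic GM had the lowest values, 0.487, 0.422 and 0.693 FPM, below all libraries of control GM (0.973, 1.73 and 2.37 FPM) and of MUNC spliced GM (1.11, 2.02 and 1.86 FPM). In DM3 the values were 0.791, 1.17 and 1.66 FPM in MUNC genomic, 1.67, 2.39 and 3.17 FPM in control and 2.62, 3.85 and 4.39 FPM in MUNC spliced cells. MUNC spliced was above MUNC genomic without overlap in DM3 (1.06 (adjusted p = 0.000967)), and MUNC genomic was below control in GM (-0.78 (adjusted p = 0.0152)). The second of these calls was lost without control GM replicate 3 or MUNC genomic GM replicate 2 (log2 changes from -0.73 to -0.60, adjusted p = 0.0556 to 0.0789). Fgf2 rose on differentiation in MUNC spliced cells (0.79 (adjusted p = 0.0111)), a call lost without MUNC spliced GM replicate 1 or MUNC spliced DM3 replicate 3 (log2 changes from 0.63 to 0.67, adjusted p = 0.0577 to 0.0612). The call of MUNC genomic below control in DM3 (-0.62 (adjusted p = 0.0344)) was lost in 6 of its 16 alternatives, without control DM3 replicate 2 or 3 or MUNC genomic DM3 replicate 1 or 2 (log2 changes from -0.62 to -0.46, adjusted p = 0.0765 to 0.153) among them. That of MUNC spliced above MUNC genomic cells in GM (0.78 (adjusted p = 0.0115)) was lost without MUNC spliced GM replicate 2 (log2 change 0.68, adjusted p = 0.05). Nudt6, which overlaps Fgf2 by 5199 bases on the opposite strand, reached 7.09 FPM, and whether the counting used strand is not given in the sources used here, so reads of the pair cannot be told apart.

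Fgf21 encodes a hormone-like ligand that needs the coreceptor beta-Klotho and is known as a stress-induced signal of muscle. MUNC spliced DM3 held 24.3, 10.2 and 8.41 FPM, above all 15 other libraries. In GM the same cells had 0.252, 0.807 and 0.307 FPM, so that Fgf21 rose by 3.27 (SE 0.53, adjusted p = 0.000267). Control cells had 0.58, 3.91 and 0.0461 FPM in GM and 2.5, 2.05 and 2.8 FPM in DM3, and MUNC genomic cells 0.344, 3.39 and 0.021 FPM in GM and 4.47, 4.01 and 2.58 FPM in DM3. Replicate 2 was the highest of the 3 in every GM group. Without MUNC spliced DM3 replicate 1, the rise in MUNC spliced cells was 2.84 (adjusted p = 0.000993) and the difference from control in DM3 1.58 (adjusted p = 0.0352), but MUNC spliced no longer differed from MUNC genomic cells by the test (1.15, adjusted p = 0.114), nor did it without MUNC genomic DM3 replicate 3. The difference from control in DM3, 2.01 (adjusted p = 0.00617), was not called by edgeR (adjusted p = 0.0641) or DESeq2 (adjusted p = 0.0806) on recovered reads. The authors' deposited DESeq2 table did call it, at a log2 fold change of 2.54 (SE 0.369, adjusted p = 1.28e-10). The rise in MUNC genomic cells, 1.34 (adjusted p = 0.0453), was lost in 10 of its 16 alternatives, without MUNC genomic GM replicate 1 or 3 or MUNC genomic DM3 replicate 1 or 2 or 3 (log2 changes from 0.92 to 1.52, adjusted p = 0.0534 to 0.204) among them.

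Fgf11 and Fgf14 encode FGF homologous factors, which stay inside the cell, bind voltage-gated sodium channels and do not act through FGF receptors in the classical way. Fgf11 rose on differentiation from 11.7, 20.3 and 13.7 to 25.6, 35.2 and 32.1 FPM in control cells (1.0 (adjusted p = 0.00297)) and from 6.83, 13 and 6.85 to 21, 24.8 and 19.7 FPM in MUNC genomic cells (1.26 (adjusted p = 0.000655)). MUNC spliced cells had 11, 18.9 and 12.4 FPM in GM and 20.4, 17.2 and 13.3 FPM in DM3, with overlap. In DM3 they lay below control (-0.84 (adjusted p = 0.0136)), a call lost without control DM3 replicate 2 or MUNC spliced DM3 replicate 3 (log2 changes from -0.74 to -0.68, adjusted p = 0.0575 to 0.0623). The lower level of MUNC genomic than control cells in GM (-0.73 (adjusted p = 0.0422)) was lost in 8 of its 16 alternatives, without control GM replicate 2 or 3 or MUNC genomic GM replicate 1 or 3 (log2 changes from -0.79 to -0.52, adjusted p = 0.0651 to 0.176) among them. It was kept with the replicate number as a block in limma (adjusted p = 0.004925). Fgf14 had no read in control GM and at most 1 read per library in control DM3. MUNC genomic libraries held 0.415, 0.354 and 0.252 FPM in growth medium and 1.44, 2.2 and 2.24 FPM after differentiation, and MUNC spliced libraries reached 0.171, 0.714 and 1.34 FPM in DM3. Pooled reads gave at least 21.1-fold more in MUNC genomic than in control cells in GM, and 156-fold (95% counting interval 42.8 to 1293) in DM3. MUNC spliced DM3 was 58.9-fold above control DM3 (16 to 492). In GM, 62 pooled reads in MUNC genomic stood against 2 in MUNC spliced cells. By limma neither this difference (adjusted p = 0.0817) nor that of MUNC genomic from control cells in GM (adjusted p = 0.0853) was called. The authors' deposited DESeq2 table called the latter (adjusted p = 2.5e-05).

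**Figure D2:**
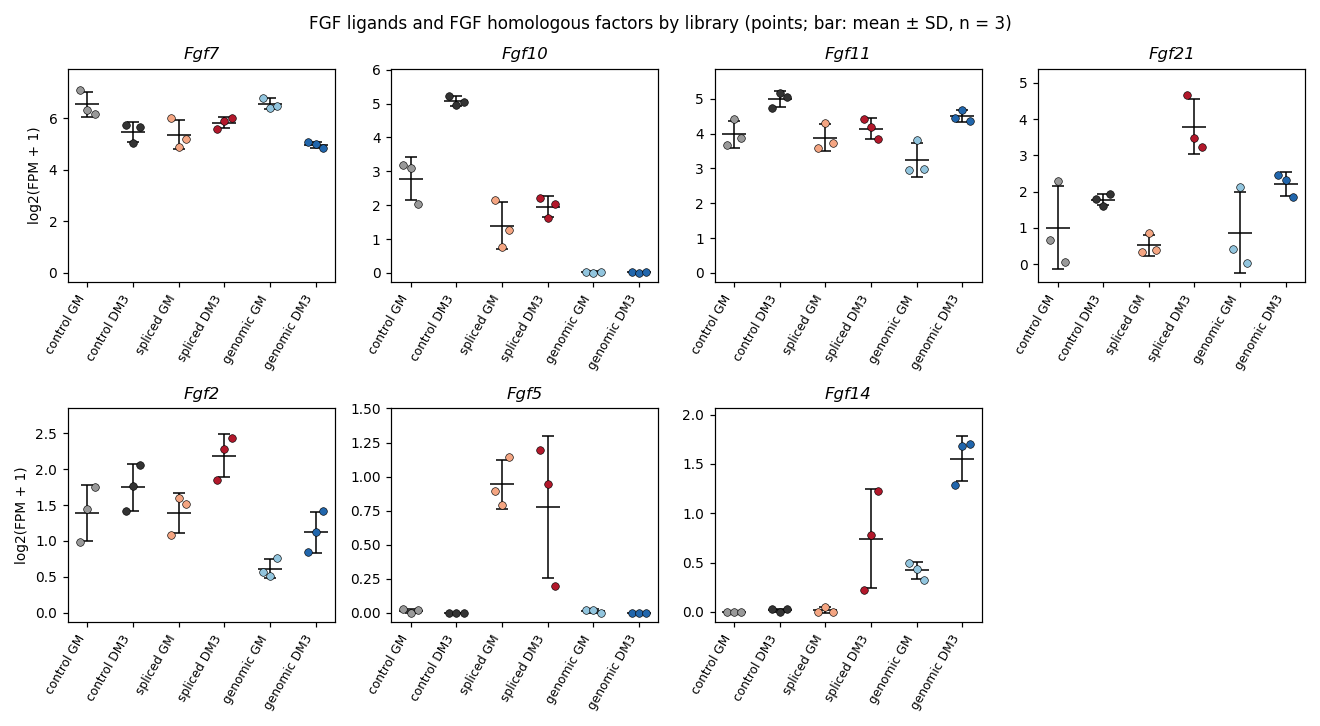
Levels of the 7 tested FGF genes as log2(FPM + 1) on the vertical axis in the 6 groups on the horizontal axis. Points are libraries and bars the mean ± SD (n = 3). Fgf10 is flat at 0 in MUNC genomic cells and highest in control DM3, Fgf5 lies above 0 in MUNC spliced cells, and Fgf21 is highest in MUNC spliced DM3.

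Among the receptor genes, Fgfr1 had the highest mean level per kb of exon in each of the 6 groups. Its levels were 149, 174 and 233 FPM in control GM and 218, 296 and 301 FPM in control DM3, where it rose by 0.56 (adjusted p = 0.0241). MUNC spliced cells had 131, 138 and 176 FPM in GM and 108, 157 and 165 FPM in DM3, and MUNC genomic cells 198, 217 and 292 and 237, 243 and 273 FPM. In DM3 every MUNC spliced library lay below every library of the other populations, with log2 changes of -0.93 (SE 0.20, adjusted p = 0.00136) against control and -0.83 (SE 0.20, adjusted p = 0.00297) against MUNC genomic cells. The rise in control cells was lost without control GM replicate 1 or 2 or control DM3 replicate 2 or 3 (log2 changes from 0.41 to 0.53, adjusted p = 0.0609 to 0.117). With the replicate number as a block in limma this rise was kept (adjusted p = 0.000228). In GM the difference between MUNC spliced and control cells was -0.31 with a 95% interval of -0.73 to 0.11 and was not called without the replicate number as a block, and was called with it (adjusted p = 0.0227). The call of MUNC spliced below MUNC genomic cells in GM (-0.66 (adjusted p = 0.0163)) was lost without MUNC spliced GM replicate 1 or 2 or MUNC genomic GM replicate 3 (log2 changes from -0.61 to -0.49, adjusted p = 0.0552 to 0.0853).

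Fgfr3 fell on differentiation in all 3 populations by nearly the same amount, from 2.73, 3.26 and 2.44 to 0.576, 1.3 and 1.66 FPM in control, from 1.69, 1.83 and 2.85 to 1.18, 0.523 and 0.597 FPM in MUNC spliced and from 2.25, 2.55 and 1.47 to 0.693, 0.753 and 0.722 FPM in MUNC genomic cells. All GM libraries lay above the DM3 libraries of their own population. The log2 changes were -0.83 (adjusted p = 0.00194), -0.82 (adjusted p = 0.00459) and -0.83 (adjusted p = 0.00256), and the differences between these responses were 0.01 with a 95% interval of -0.59 to 0.61 for MUNC spliced and 0.01 with a 95% interval of -0.59 to 0.61 for MUNC genomic against control. Fgfr3 is one of the kinase receptors of the family. Fgfr4, a receptor associated with muscle differentiation and regeneration, stayed under 1 FPM in every library. Control cells had 0.0854, 0.0177 and 0 FPM in GM and 0.154, 0.631 and 0.921 FPM in DM3, a log2 change of 0.57. MUNC genomic cells had at most 0.0429 FPM in GM and 0.346 to 0.624 FPM in DM3, a log2 change of 0.50. In both populations Fgfr4 reached 0.5 FPM in DM3 libraries only, so its calls there describe levels and no test is given. The control call was lost without control DM3 replicate 3 (log2 change 0.41). The MUNC genomic call was lost without MUNC genomic GM replicate 3 or MUNC genomic DM3 replicate 3 (log2 changes from 0.42 to 0.48).

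Fgfrl1 encodes a receptor that binds FGF but has no kinase domain. In control GM it stood at 12.3, 11.9 and 12.3 FPM, below every library of MUNC spliced GM (18.4, 17.5 and 21.8 FPM), a difference of 0.62 (adjusted p = 0.00346). In DM3 the MUNC genomic libraries (21.7, 24.3 and 22.5 FPM) lay above control (13.1, 14.8 and 17.6 FPM) by 0.57 (adjusted p = 0.00489). Its rise on differentiation of MUNC genomic cells (0.47 (adjusted p = 0.0119)) was lost without MUNC genomic GM replicate 1 (log2 change 0.34, adjusted p = 0.075).

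The adaptor gene Frs2, whose product docks GRB2 and SHP2 to the receptor, was higher in both overexpressing populations in GM. Control GM held 97, 122 and 109.7 FPM, MUNC spliced GM 136, 176 and 169 FPM and MUNC genomic GM 198, 201 and 177 FPM. No control GM library reached the lowest of the others. The log2 changes against control were 0.54 (adjusted p = 0.00388) for MUNC spliced and 0.80 (adjusted p = 0.000192) for MUNC genomic cells. In DM3 control had 126, 157 and 145 FPM, MUNC spliced 154, 182 and 200.4 FPM and MUNC genomic 168, 189 and 196 FPM. There the test called MUNC genomic (0.37 (adjusted p = 0.0297)) but not MUNC spliced cells (0.32 (adjusted p = 0.0512)), and the first of these was lost without control DM3 replicate 1 or 3 or MUNC genomic DM3 replicate 2 or 3 (log2 changes from 0.28 to 0.38, adjusted p = 0.0576 to 0.125). With the replicate number as a block the MUNC spliced difference was called (adjusted p = 0.00636). The rise of Frs2 on differentiation of control cells (0.37 (adjusted p = 0.0199)) was lost without control GM replicate 1 or control DM3 replicate 2 or 3 (log2 changes from 0.29 to 0.36, adjusted p = 0.0536 to 0.0933). Frs3, the related adaptor, was at most 7.90 FPM and rose on differentiation in control (0.60 (adjusted p = 0.0116)) and MUNC genomic cells (0.76 (adjusted p = 0.00273)). The control call was lost without control DM3 replicate 3 (log2 change 0.39, adjusted p = 0.0809). In DM3, Frs3 was lower in MUNC spliced than MUNC genomic cells (-0.58 (adjusted p = 0.0189)), a call lost without MUNC spliced DM3 replicate 1 or 2 (log2 changes from -0.56 to -0.46, adjusted p = 0.0516 to 0.0843).

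**Figure D3:**
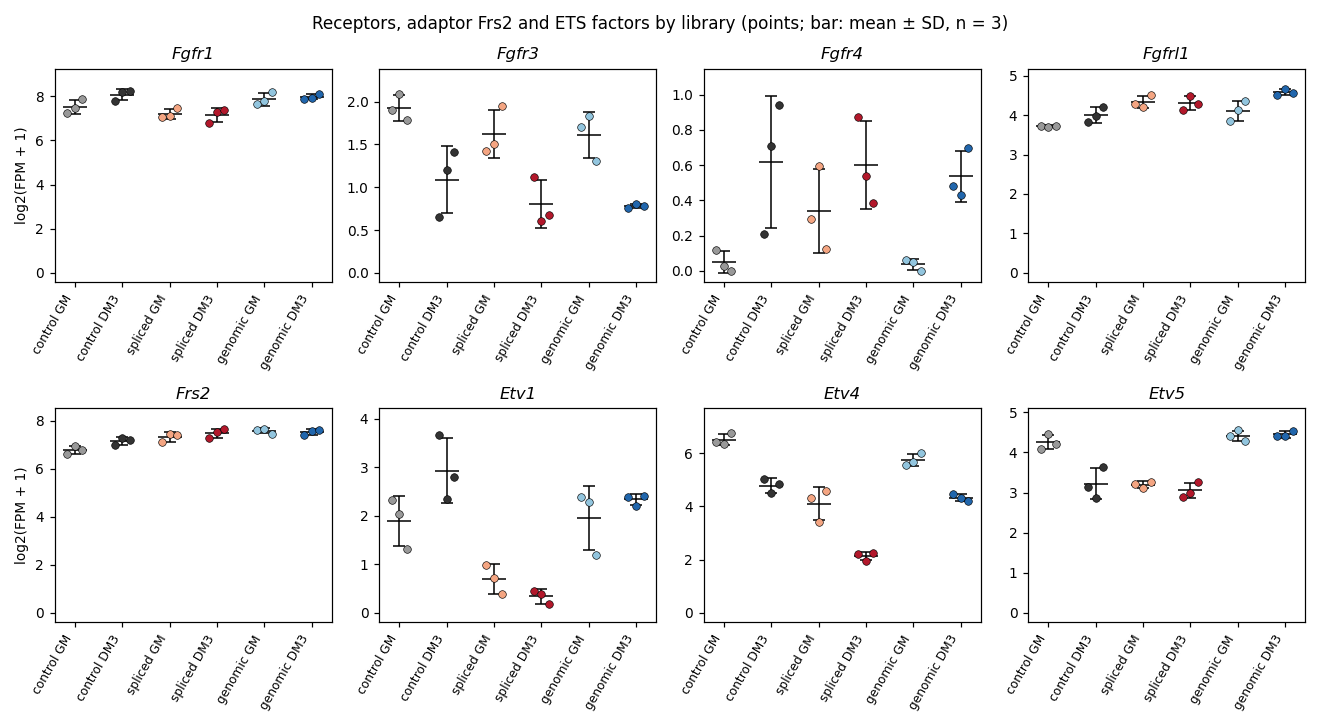
Levels of the 4 tested receptors, the adaptor Frs2 and the 3 ETS factors as log2(FPM + 1) on the vertical axis in the 6 groups on the horizontal axis. Points are libraries and bars the mean ± SD (n = 3). Fgfr3 is lower in DM3 than in GM in all 3 populations, and Etv4 is lowest in MUNC spliced DM3.

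The feedback inhibitor Spry1 (chr3:37639947-37644598, plus strand, GRCm38) was at or near 0 in control cells and present in both overexpressing populations. The control libraries held 1, 0 and 0 reads in growth medium and 0, 4 and 0 reads after differentiation. MUNC spliced cells had 5.15, 11.2 and 5.14 FPM in GM and 37.5, 55.5 and 71.3 FPM in DM3. MUNC genomic cells had 4.05, 5.2 and 1.6 FPM in GM and 44, 29.7 and 35.1 FPM in DM3. Every library of both overexpressing populations lay above every control library, and within each population every DM3 library lay above every GM library. Pooled reads in DM3 were 9106 in MUNC spliced and 5998 in MUNC genomic cells against 4 in control, ratios of 2162 (95% counting interval 844 to 7937) and 1400 (547 to 5141) after scaling. In GM 1098 and 667 reads stood against 1 read in control, ratios of 1322 (237 to 52270) and 680.1 (122 to 26900). On the log2(FPM + 1) scale the change against control in DM3 was 5.72 for MUNC spliced and 5.17 for MUNC genomic cells. Because Spry1 passed the limit through these 2 populations alone, its calls against control describe levels and no test of them is given. By limma the rise on differentiation was 2.81 (SE 0.31, adjusted p = 7.53e-06) in MUNC spliced and 3.09 (SE 0.31, adjusted p = 1.54e-06) in MUNC genomic cells. The call between the overexpressing populations in GM (0.83 (adjusted p = 0.0441)) was lost in 9 of its 16 alternatives, without MUNC spliced GM replicate 2 or MUNC genomic GM replicate 1 or 3 (log2 changes from 0.46 to 0.94, adjusted p = 0.0547 to 0.235) among them, and in DM3 their difference was 0.55 with a 95% interval of -0.10 to 1.20, not called. Spry1 and Fgf2 (chr3:37348346-37410108) lie on the same chromosome, and Fgf2 did not share this pattern.

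Spry4 moved the other way. It fell from 16.9, 16 and 19.5 FPM in control GM to 8.99, 6.23 and 10 FPM in control DM3. MUNC spliced cells had 6.66, 2.95 and 4.98 FPM in GM and 3.85, 2.74 and 3.24 FPM in DM3, and MUNC genomic cells 5.83, 4.0 and 4.37 and 1.78, 2.35 and 1.72 FPM. In each medium all 3 control libraries lay above all 6 others. The log2 changes against control in GM were -1.70 (adjusted p = 1.96e-05) for MUNC spliced and -1.70 (adjusted p = 1.96e-05) for MUNC genomic cells, and in DM3 -1.12 (adjusted p = 0.000574) and -1.66 (adjusted p = 1.35e-05).

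Spry2, the third sprouty gene measured, stood above Spry4 per kb of exon in control cells, with 36.6, 22.3 and 26.2 FPM in GM and 40.4, 26.9 and 29.4 FPM in DM3. It rose on differentiation in MUNC spliced cells, from 27.8, 18.2 and 16.2 to 50.3, 42.4 and 33.1 FPM (1.0 (adjusted p = 0.00436)), and in DM3 these libraries lay above those of MUNC genomic cells (27.9, 21.4 and 15.8 FPM; 0.93 (adjusted p = 0.00468)). In GM, MUNC genomic cells (18.1, 16.5 and 14.9 FPM) were lower than control (-0.72 (adjusted p = 0.0343)), a call lost without control GM replicate 1 or 3 or MUNC genomic GM replicate 1 or 2 or 3 (log2 changes from -0.79 to -0.53, adjusted p = 0.0554 to 0.154). With the replicate number as a block in limma that call was kept (adjusted p = 0.000466). The sum of Spry1, Spry2 and Spry4 (mean ± SD of 3 libraries) was 45.9 ± 7.6 FPM in control GM and 40.7 ± 8.16 FPM after differentiation. The sum was 32.8 ± 6.67 and 100 ± 8.0 FPM in MUNC spliced and 24.8 ± 3.66 and 59.9 ± 12 FPM in MUNC genomic cells. Spry1 made up at most 0.237% of this sum in any control library, and 54.1 ± 12.7% in MUNC spliced DM3 and 60.7 ± 5.62% in MUNC genomic DM3. Spry4 made up 38.7 ± 6.15% in control GM and 3.31 ± 0.787% and 3.36 ± 0.993% in those 2 DM3 groups. These shares are of FPM, not corrected for gene length.

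Dusp4, which encodes a nuclear phosphatase of ERK, was lowest in MUNC spliced cells. Control cells had 149.5, 133 and 229 FPM in GM and 127, 171 and 136 FPM in DM3, and MUNC spliced cells 68.8, 27 and 62.1 and 26.3, 24.2 and 27.1 FPM. All MUNC spliced libraries lay below all control libraries of the same medium, by -1.74 (SE 0.26, adjusted p = 0.000107) in GM and -2.43 (SE 0.26, adjusted p = 2.16e-06) in DM3. MUNC genomic cells had 149.7, 118 and 158 FPM in GM, overlapping control, and 64, 60.1 and 67.7 FPM in DM3, below control (-1.16 (SE 0.26, adjusted p = 0.00231)). Dusp4 fell on differentiation in MUNC genomic cells (-1.13 (adjusted p = 0.00209)) and in MUNC spliced cells (-0.89 (adjusted p = 0.0157)), the latter not without MUNC spliced GM replicate 1 or 3 or MUNC spliced DM3 replicate 2 (log2 changes from -0.85 to -0.65, adjusted p = 0.052 to 0.0895). Control cells gave -0.21 with a 95% interval of -0.77 to 0.35 and were not called.

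Dusp6, which encodes the cytoplasmic ERK phosphatase and is a textbook target of FGF signalling, varied widely between replicates. It stood at 106, 58.9 and 75.1 FPM in control GM and 71.2, 37.2 and 30.2 FPM in control DM3, ranges that overlapped, with a log2 change of -0.83 (adjusted p = 0.0486). That call was lost in 10 of its 16 alternatives, without control GM replicate 1 or 3 or control DM3 replicate 2 or 3 (log2 changes from -0.86 to -0.58, adjusted p = 0.0834 to 0.207) among them. In MUNC spliced GM the values were 54.2, 27 and 37.4 FPM, lower than control by -1.01 (adjusted p = 0.0318), a call lost without control GM replicate 1 or 3 or MUNC spliced GM replicate 2 or 3 (log2 changes from -1.03 to -0.77, adjusted p = 0.0633 to 0.145). MUNC genomic cells had 99.5, 70.4 and 55.6 FPM in GM and 107, 68.7 and 58 FPM in DM3, and MUNC spliced DM3 had 63.3, 45.3 and 32.8 FPM. In every group replicate 1 was the highest. Same-numbered control libraries deviated together (r 0.203 to 0.411 over genes), and Dusp6 fell in each of these 3 pairs; with the replicate number as a block the call was kept (adjusted p = 0.000295), as was that of MUNC spliced against control in GM (adjusted p = 0.000141). With the block Dusp6 was also called higher in MUNC genomic than in control DM3, at 0.79 (adjusted p = 0.000747), where the test without it gave 0.79 (adjusted p = 0.0809). The lower level of MUNC spliced than MUNC genomic cells in GM (-0.93 (adjusted p = 0.0469)) was kept with the block (adjusted p = 0.000261) and lost in 6 of its 16 alternatives, without MUNC spliced GM replicate 2 or 3 or MUNC genomic GM replicate 1 or 2 (log2 changes from -0.95 to -0.69, adjusted p = 0.0808 to 0.188) among them.

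The SPRED genes differed from one another. Spred3, known as the weaker inhibitor of the family, rose on differentiation from 9.58, 13.2 and 8.39 to 26.6, 35.5 and 39.1 FPM in control (1.61 (SE 0.26, adjusted p = 7.94e-05)) and from 11.8, 17.5 and 8.36 to 36, 36.8 and 44.1 FPM in MUNC genomic cells (1.61 (SE 0.26, adjusted p = 0.000109)). In MUNC spliced cells it stood at 6.79, 11.9 and 8.19 FPM in GM and 10.8, 11.5 and 19.2 FPM in DM3, and in DM3 these libraries lay below all other DM3 libraries, by -1.25 (adjusted p = 0.00117) against control. The direct test of the difference in response between MUNC spliced and control cells gave -1.05 (adjusted p = 0.0695) and was not called; with the replicate number as a block it was (adjusted p = 0.0343). In DM3, Spred2 in MUNC spliced cells lay below its level in MUNC genomic cells (36.4, 50.2 and 53.4 against 62.9, 71.7 and 77.8 FPM; -0.60 (adjusted p = 0.00181)). The lower Spred2 level in MUNC spliced than in control DM3 (-0.44 (adjusted p = 0.0163)) was lost without control DM3 replicate 3 or MUNC spliced DM3 replicate 1 (log2 changes from -0.35 to -0.27, adjusted p = 0.08 to 0.0984), and its lower level than in MUNC genomic GM (-0.41 (adjusted p = 0.027)) without MUNC spliced GM replicate 1 or 2 or MUNC genomic GM replicate 1 or 2 (log2 changes from -0.42 to -0.35, adjusted p = 0.0572 to 0.0967). Spred1 lay between 95.6 and 140.3 FPM in all 18 libraries and was called in none of the 12 comparisons. Its log2 change on differentiation of control cells was 0.18 with a 95% interval of -0.09 to 0.45.

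**Figure D4:**
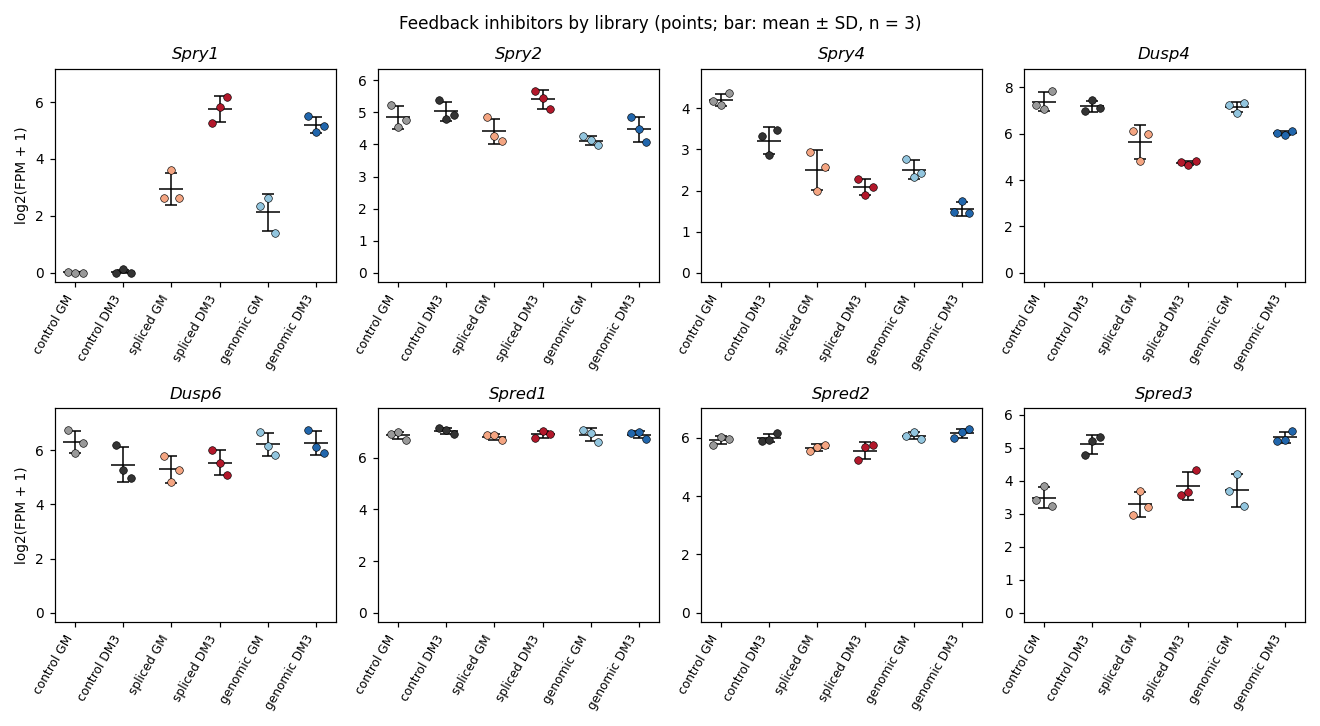
Levels of the 8 feedback inhibitors as log2(FPM + 1) on the vertical axis in the 6 groups on the horizontal axis. Points are libraries and bars the mean ± SD (n = 3). Spry1 is at or near 0 in control cells and above 1 in every MUNC spliced and MUNC genomic library, while Spry4 and Dusp4 are highest in control GM by their means, and Spred1 is level across groups.

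The 3 ETS factors of the PEA3 group, Etv1, Etv4 and Etv5, are transcription factors whose genes respond to ERK. Etv4 fell on differentiation in all 3 populations and was lowest in MUNC spliced cells. It stood at 85.3, 80 and 106 FPM in control GM and 31.8, 21.5 and 27.3 FPM in control DM3 (-1.72 (SE 0.23, adjusted p = 1.38e-05)). MUNC spliced cells went from 19, 9.7 and 22.9 to 3.65, 2.86 and 3.71 FPM (-1.97 (SE 0.23, adjusted p = 1.74e-05)), and MUNC genomic cells from 45.7, 50.1 and 63.6 to 20.9, 18.8 and 17.4 FPM (-1.43 (SE 0.23, adjusted p = 0.000112)). The DM3 and GM libraries of each population did not overlap. In both media every MUNC spliced library lay below every other library of that medium, with log2 changes against control of -2.40 (adjusted p = 1.02e-06) in GM and -2.65 (adjusted p = 2.23e-07) in DM3, and against MUNC genomic cells of -1.64 (adjusted p = 4.57e-05) and -2.19 (adjusted p = 1.23e-06). The responses to differentiation did not differ by the test: the interaction with MUNC spliced was -0.25 with a 95% interval of -0.95 to 0.45. MUNC genomic cells lay below control in GM (-0.76 (adjusted p = 0.0237)), a call lost without control GM replicate 3 or MUNC genomic GM replicate 1 or 2 (log2 changes from -0.73 to -0.64, adjusted p = 0.0718 to 0.0958).

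Etv1 was low throughout and, like Etv4, lowest in MUNC spliced cells, with 0.984, 0.642 and 0.307 FPM in GM and 0.361, 0.314 and 0.127 FPM in DM3. Control cells had 4.03, 3.1 and 1.51 FPM in GM and 11.6, 4.06 and 5.95 FPM in DM3, and MUNC genomic cells 4.25, 3.9 and 1.28 and 4.27, 3.61 and 4.33 FPM. In each medium every MUNC spliced library was below every other library. The changes against control were -1.20 (adjusted p = 0.0111) in GM, lost without control GM replicate 1 (log2 change -0.98, adjusted p = 0.0559), and -2.60 (adjusted p = 1.34e-05) in DM3. The rise in control cells (1.04 (adjusted p = 0.0145)) was lost without control GM replicate 3 or control DM3 replicate 1 (log2 changes from 0.67 to 0.75, adjusted p = 0.0853 to 0.0923). By limma, Etv1 was not called on differentiation in MUNC spliced (-0.36, adjusted p = 0.425) or MUNC genomic cells (0.38, adjusted p = 0.362).

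Etv5 was called lower on differentiation in control cells only. In control cells it fell from 16.1, 21.1 and 17.7 to 7.85, 6.29 and 11.4 FPM (-1.05 (SE 0.17, adjusted p = 6.98e-05)). MUNC genomic cells kept 20.1, 22.4 and 18.6 FPM in GM and 20.1, 20.1 and 22.4 FPM in DM3, which in DM3 lay above all control libraries (1.23 (SE 0.17, adjusted p = 2.14e-05)). MUNC spliced cells had 8.25, 7.63 and 8.66 FPM in GM, below control (-1.06 (SE 0.17, adjusted p = 0.000159)), and 6.45, 6.97 and 8.64 FPM in DM3, within the range of control. The changes on differentiation in the overexpressing populations were -0.14 with a 95% interval of -0.50 to 0.21 for MUNC spliced and 0.04 with a 95% interval of -0.32 to 0.39 for MUNC genomic cells, and neither was called. Their differences from the control response were called, at 0.90 (adjusted p = 0.0211) and 1.08 (adjusted p = 0.00891); the first was lost without MUNC spliced GM replicate 2 or control DM3 replicate 2 (log2 changes from 0.73 to 0.86, adjusted p = 0.0513 to 0.0591).

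Levels were also summed over the ETS factors. Their summed level (mean ± SD of 3 libraries) went from 111.6 ± 11.8 to 42.6 ± 9.89 FPM in control cells, from 26 ± 7.22 to 11 ± 1.27 FPM in MUNC spliced cells and from 76.6 ± 6.72 to 44 ± 1.42 FPM in MUNC genomic cells between GM and DM3. The 22 FGF genes summed to 121 ± 33.8 FPM in control, 61.8 ± 15.8 FPM in MUNC spliced and 105.8 ± 12.4 FPM in MUNC genomic cells in GM, and to 114 ± 10.2, 96.2 ± 3.85 and 59.4 ± 5.0 FPM in DM3, where the MUNC genomic sum was the lowest. The sums over the 8 feedback inhibitors were, also in GM, 482 ± 46 FPM in control, 295 ± 34 FPM in MUNC spliced and 439 ± 46.1 FPM in MUNC genomic cells, and in DM3 459 ± 21.2, 353 ± 13.5 and 429.8 ± 33.2 FPM. These sums were not tested.

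Whether differentiation acted differently in the overexpressing populations was tested with interaction terms. For MUNC spliced cells 5 of the 24 genes were called, Spry1, Fgf21, Fgf7 and Etv5 higher and Fgf10 lower, against a background of 14.4% of all tested genes (7.43% higher, 6.94% lower). For MUNC genomic cells 4 were called, Spry1, Fgf14 and Etv5 higher and Fgf10 lower, against 8.81% (3.56% higher, 5.25% lower). Between the 2 overexpressing populations Fgf7 alone was called, higher in MUNC spliced cells, against 10.5% (5.36% higher, 5.17% lower). The Spry1 and Fgf14 terms rest on control cells at or near 0 in both media, and the Fgf10 term of MUNC genomic cells on MUNC genomic libraries at or near 0. In the Fgf10 term of MUNC spliced cells both populations held the transcript, and this call was lost with a pseudocount of 0.1 FPM, with edgeR, with DESeq2 and with only the groups compared (log2 changes from -1.73 to -1.60, adjusted p = 0.0527 to 0.0912). The Spry1 terms of MUNC spliced and MUNC genomic cells were 2.78 and 3.06 on the log2(FPM + 1) scale. They are comparisons with control, so they describe levels and no limma test of them is given. On recovered reads they were not called by edgeR (adjusted p = 0.894 and 0.879) or DESeq2 (adjusted p = 0.752 and 0.704). With the replicate number as a block the counts were 12, 7 and 5, but the background rose as well, to 27.9%, 16.3% and 19.6% of all tested genes. The genes gained were Dusp6, Etv1, Fgf11, Fgf14, Fgfr1, Spred3 and Spry2 for MUNC spliced, Dusp6, Fgfr1 and Frs2 for MUNC genomic, and Fgf11, Fgfrl1, Spred3 and Spry2 between them.

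Genes around the module were described with a list of 77 others, of which 66 were tested. On differentiation 25 rose and 13 fell in control, 19 and 10 in MUNC spliced, and 22 and 11 in MUNC genomic cells, against backgrounds of 29.6% higher and 28.6% lower, 17.2% and 18.4%, and 26.3% and 25.1% of all tested genes. Against control, the largest changes among called genes of the list that reached 5 FPM without overlap of the groups were those of Sulf1 and Sulf2 in MUNC spliced and of Sdc3 and Flrt2 in MUNC genomic cells, in both media. Heparan sulphate and its carriers hold FGF at the receptor. Sulf1, which encodes a sulphatase that edits heparan sulphate outside the cell, stood at 0.393, 0.248 and 0.492 FPM in control GM, 1.19, 2.36 and 0.546 FPM in MUNC genomic GM and 35.8, 55.4 and 35.6 FPM in MUNC spliced GM. Its relative Sulf2 had 7.78, 3.95 and 3.47 FPM, 8.53, 9.42 and 5.92 FPM and 165, 159.8 and 122 FPM in the same groups. MUNC spliced libraries lay far above the others for both genes, with log2 changes against control of 4.95 (SE 0.33, adjusted p = 9.68e-09) and 4.68 (SE 0.23, adjusted p = 2.09e-10) in GM and 4.63 (adjusted p = 1.69e-08) and 3.58 (adjusted p = 3.98e-09) in DM3. Of the 11 tested genes of heparan sulphate synthesis and editing, 5 were higher and 1 lower in MUNC spliced than in control cells in each medium, against backgrounds of 18.2% and 17.3% in GM and 22.3% and 21% in DM3.

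Sdc3, which encodes the heparan sulphate proteoglycan syndecan-3, rose from 9.22, 13.1 and 16.7 FPM in control GM to 54.6, 62.8 and 58.5 FPM in control DM3 (2.12 (SE 0.21, adjusted p = 6.59e-07)). MUNC genomic cells had 5.04, 5.45 and 6.83 FPM in GM and 4.14, 5.24 and 2.91 FPM in DM3, below every control library, by -1.02 (adjusted p = 0.00148) and -3.57 (adjusted p = 7.36e-10). Flrt2, which encodes a membrane protein known to bind FGF receptors, had 378, 429.6 and 389.8 FPM in control DM3 and 55.9, 71.2 and 50.1 FPM in MUNC genomic DM3 (-2.75 (SE 0.14, adjusted p = 2.04e-10)). Il17rd, whose product SEF is a further inhibitor of the pathway, rose in control cells from 12.8, 15.4 and 9.56 to 46.6, 41.7 and 40.2 FPM (1.71 (SE 0.30, adjusted p = 0.000173)). Its levels were also higher in DM3 without overlap in MUNC spliced (12.8 to 24.3 FPM in GM, 25.3 to 38.4 FPM in DM3) and MUNC genomic cells (12.5 to 37.3 and 64.1 to 79.9 FPM). Genes known to respond to ERK moved both ways. Of 14 tested, 3 rose and 5 fell on differentiation of control cells, and 4 rose and 4 fell in each overexpressing population. Ccnd1, the gene of cyclin D1, fell in control (-1.98 (adjusted p = 1.13e-05)) and MUNC genomic cells (-2.41 (adjusted p = 3.13e-06)) and was lower in MUNC spliced than in control GM (-1.28 (adjusted p = 0.00135)), and Myc fell in control cells (-1.55 (adjusted p = 6.6e-05)). The immediate early gene Fos rose in MUNC spliced (3.62 (adjusted p = 0.0125)) and MUNC genomic cells (3.70 (adjusted p = 0.0069)), as did the phosphatase gene Dusp1 (1.69 (adjusted p = 0.000385) and 2.35 (adjusted p = 8.16e-06)), and Egr1 rose in MUNC spliced cells (1.45 (adjusted p = 0.0222)). Fosl1 fell in MUNC spliced (-2.09 (adjusted p = 0.00134)) and MUNC genomic cells (-2.20 (adjusted p = 0.000448)). These moves on differentiation were not all particular to the populations named, since at most 4 genes are named per comparison. In control cells Dusp1 was also higher in DM3 (86.45 to 118 FPM in GM, 155 to 273 FPM in DM3) and Fosl1 lower (54.6 to 111.5 and 20.9 to 36.1 FPM), without overlap. Fos and Egr1 had higher means in control DM3 than GM too, with overlap. Ccnd1 in MUNC spliced and Myc in MUNC genomic cells also fell without overlap. Myc in MUNC spliced cells overlapped between GM (51.8 to 117 FPM) and DM3 (64.3 to 101 FPM). In DM3, Egr2 was higher (1.84 (adjusted p = 0.0152)) and Fosl1 lower (-1.39 (adjusted p = 0.0142)) in MUNC spliced than in control cells. Summed over 8 proliferation genes, control cells had 2914 to 3397 FPM in GM and 249 to 456 FPM after differentiation, MUNC spliced GM 1896 to 2421 FPM and MUNC genomic GM 2824 to 3100 FPM. All 8 fell on differentiation in all 3 populations. Among all tested genes 28.6%, 18.4% and 25.1% were called lower in control, MUNC spliced and MUNC genomic cells. In GM 1 of the 8 was lower in MUNC spliced than in control cells, against 17.3% of all tested genes. The part of these 8 genes in the changes of ETS factors and inhibitors was not tested. Dusp5, which encodes another nuclear ERK phosphatase, lay below MUNC genomic cells in the MUNC spliced DM3 libraries, at 6.28, 4.36 and 4.25 against 40.4, 19.3 and 22.5 FPM (-2.20 (SE 0.28, adjusted p = 8.24e-06)).

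**Figure D5:**
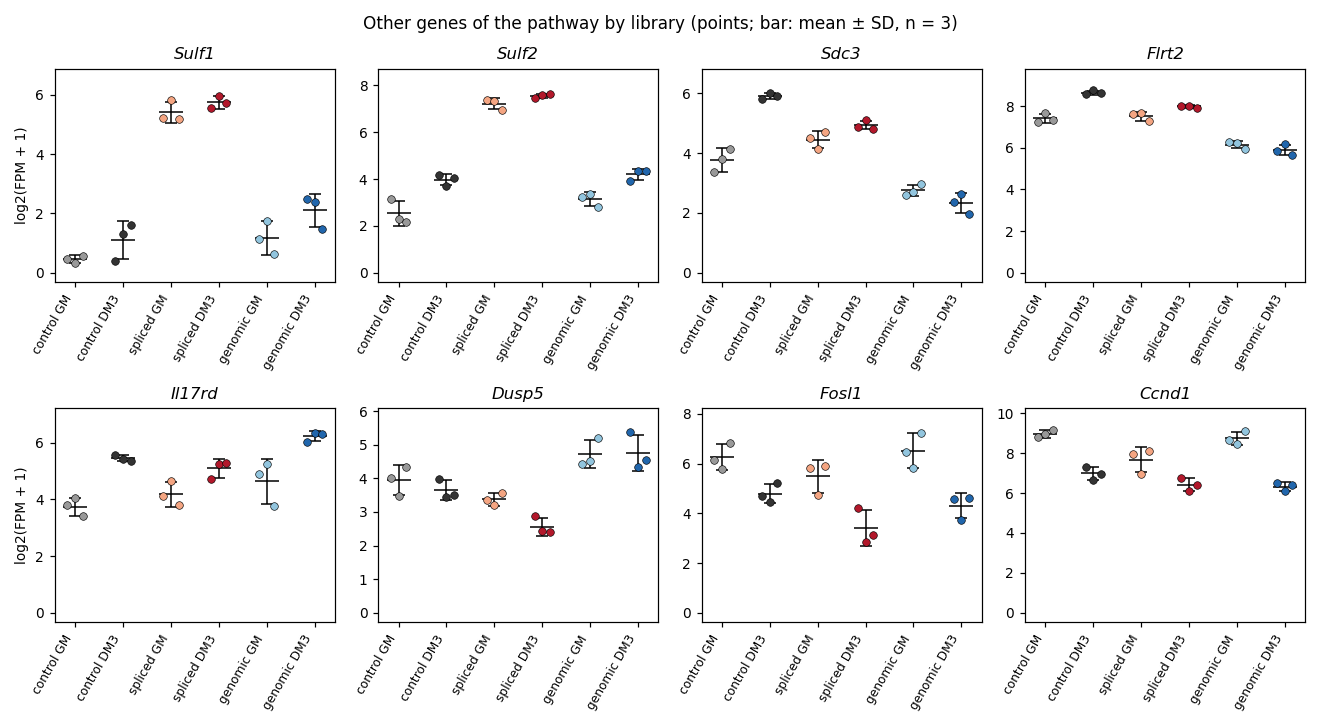
Levels of 8 other genes of the pathway as log2(FPM + 1) on the vertical axis in the 6 groups on the horizontal axis. Points are libraries and bars the mean ± SD (n = 3). Sulf1 and Sulf2 lie above all other groups in MUNC spliced cells, Sdc3 and Flrt2 are lowest in MUNC genomic cells, and Ccnd1 is lower in DM3 than in GM in each population.

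The authors' deposited tables cover 5 of the comparisons. Some of the 40 genes have no adjusted p there, whereas the percentages given here are of genes that have one. Counts out of 40 and these percentages thus have different bases and cannot be compared directly. In the authors' deposited table of control differentiation, 14 of the 40 genes had an adjusted p under 0.05, where 43.2% of all genes with an adjusted p there did. Of the 14, 13 were also called by limma, all with the same sign. For MUNC spliced against control the authors' deposited tables called 13 genes in GM and 12 in DM3, against 25.3% and 33.1% of all genes in those tables, and limma shared 12 in each. For MUNC genomic against control in GM 7 calls were shared, out of 8 in each, with 19.9% of all genes called in the authors' deposited table. The largest gap was in MUNC genomic against control in DM3, where the authors' deposited table called 15 genes (39.3% of all genes) and limma 9, all of which were shared. The 6 called only in the authors' deposited table were Etv1, Etv4, Spry2, Fgf11, Fgf7 and Fgfr2, all lower in MUNC genomic cells. The authors' deposited table gave log2 fold changes of -11.4 for Fgf10 and 10.5 for Spry1 in that comparison, on a scale without the added 1 FPM.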

How the data were processed

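Libraries were made from polyadenylated RNA, per the labels' protocols. STAR, HTSeq, DESeq2 and the build mm10 are named in the submitters' processing notes, without versions or roles. Normalized signal in FPM was deposited by the authors as 1 table over 18 libraries; a label calls it FPKM, but in each library 100% of the values were whole multiples (to within 0.05 of a read) of a step shared by all genes, so the values are read counts divided by a size factor and are not scaled by length. FPM sums were 946834 to 1048477. The authors also deposited 5 tables of comparisons with log2 fold changes, p-values and scores (mean count and test statistic) per the file headers; the scores were not used.

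Groups came from the sample titles. log2(FPM + 1) was fitted with limma 3.58.1 in R 4.3.3 (lmFit, contrasts.fit, eBayes with trend), 1 mean per group over 18 libraries (12 residual degrees of freedom), for the 13869 genes that reached 0.5 FPM in 3 or more libraries. Calls needed an adjusted p (Benjamini-Hochberg, over all tested genes) under 0.05, and changes near 0 are understated by the added 1 FPM. The script was tested on simulated data. Folds of genes near 0 used pooled recovered reads with exact 95% intervals or a floor of 3 reads over the group; both cover counting error only. Alternatives were other pseudocounts, filters and scalings, edgeR 4.0.16 and DESeq2 1.42.0 on recovered reads, a replicate block, only the groups compared, 1 library left out and a minimum change. Same-numbered replicates deviated together (every r above 0.1) in 6 of the 9 comparisons between groups, lowest r 0.171; the exceptions were the differentiation of MUNC spliced and of MUNC genomic cells and the comparison of both in DM3 (lowest r 0.0163, 0.0531 and 0.0939).

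Genes and lists were chosen with earlier results of these data known. Members averaging at least 1 FPM in a group, 22 of the 40, are described with their values by library, with changes for calls; of 77 other pathway genes at most 4 per comparison may be named, by size, among called genes at 5 FPM or more whose groups do not overlap. Il17rd, Dusp5 and the genes known to respond to ERK that are named fall under that rule. Fgf5 and Fgfr4, below 1 FPM on average, are also given by library, a choice made after their values were seen. Promoters came from RefSeq (GRCm38.p6), which matched 30 of the 40 genes; the E-box motif was added after values were seen. Positions and exon lengths came from GENCODE M21 (GRCm38).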

Additional observations from a re-analysis of the deposited data

Results flagged for a closer look

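All results given here were called by limma as a difference between groups in the response to differentiation (an interaction term on the log2(FPM + 1) scale). For MUNC spliced against control cells these were Spry1 at 2.78, Fgf21 at 2.50, Fgf7 at 1.53, Etv5 at 0.90 and Fgf10 at -1.73. For MUNC genomic against control cells they were Spry1 at 3.06, Fgf14 at 1.12, Etv5 at 1.08 and Fgf10 at -2.29. Between MUNC spliced and MUNC genomic cells it was Fgf7 at 2.06.

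Etv5 for MUNC genomic and both Fgf7 terms were called in every alternative that was run. The Fgf21 term was lost in 13 of its 22 alternatives, with adjusted p up to 0.203, and 8 of those left out 1 library. Spry1 has at most 4 reads in a control library and Fgf10 at most 2 in a MUNC genomic library, and Fgf14 has no read in control GM, so their terms on this scale carry the level reached in the other groups. The cause of these differences was not tested.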

How the results depend on the processing

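Of 114 member calls over the 12 comparisons, 75 were kept under every alternative. A pseudocount of 0.1 FPM kept 109, no filter 101, equal library sums 108, quantile normalization 107, edgeR 102, DESeq2 102 and a fit of only the groups compared 104. The replicate block, whose pairing is a hint from the data where replicates deviated together, kept all 114 and raised the interaction counts to 12 for MUNC spliced, 7 for MUNC genomic and 5 between them; it moved no other count by over 1.5 times. In the pairwise comparisons whose replicates deviated together it also called Fgf2 and Fgfrl1 for control differentiation, Spry2 for MUNC spliced and Fgfr1 and Fgfrl1 for MUNC genomic against control in GM, Fgf2, Fgfrl1 and Spry2 for MUNC spliced and Fgf11 and Spry2 for MUNC genomic against control in DM3, and Fgf11 and Frs2 between MUNC spliced and MUNC genomic cells in GM. With a minimum absolute log2 change of 1, fewer genes can be called by construction, and the counts were 7 for control, 3 for MUNC spliced and 8 for MUNC genomic differentiation, 3 for MUNC genomic against control in GM, 8 for MUNC spliced against control in DM3, and 6 in GM and 8 in DM3 for MUNC spliced against MUNC genomic. For the MUNC spliced interaction edgeR, DESeq2 and a fit of only the groups compared gave 3 each, and for MUNC genomic edgeR and DESeq2 gave 1 each. The share of all tested genes called is not given here for these rules, nor for fits without 1 library. Such counts thus have no background and describe only how the calls depend on the rule. The Fgf14 interaction with MUNC genomic reversed with edgeR, to -0.23 (adjusted p = 0.761). The cause was not tested.

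Leaving out 1 library gave 9 to 14 calls for control, 7 to 10 for MUNC spliced and 11 to 13 for MUNC genomic differentiation. Against control it gave 10 to 12 in GM and 12 to 15 in DM3 for MUNC spliced, and 4 to 7 in GM and 7 to 10 in DM3 for MUNC genomic. MUNC spliced against MUNC genomic gave 7 to 11 in GM and 13 to 15 in DM3. The interactions gave 4 to 7 for MUNC spliced, 4 in every fit for MUNC genomic and 1 to 3 between them (2 without MUNC spliced GM replicate 2, and 3 without MUNC genomic GM replicate 2 or MUNC spliced DM3 replicate 3). Depth limits values of a few reads: a gene with no read allows up to 0.0757 FPM.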
